A study of Homo sapiens with 4 samples.

Results

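The genes of the enzymes and complexes that untangle and compact chromosomes were followed in cells exposed to Nutlin-3 or to its solvent. The members were the 2 topoisomerase II genes (TOP2A and TOP2B), the 2 genes of the core shared by both condensin complexes (SMC2 and SMC4), the 3 genes of subunits found only in condensin I (NCAPD2, NCAPG and NCAPH) and the 3 genes of subunits found only in condensin II (NCAPD3, NCAPG2 and NCAPH2). They were chosen by name and matched by Ensembl identifier, and 10 of 10 were found among the 25693 human genes of the count table. After scaling for pool size all 10 were lower in Nutlin-3 than in ethanol, and 4 of them were at least 1.2-fold lower, as were 6.3% of the 8844 genes that averaged 50 CPM (counts relative to the size of the pool) or more. The widest gaps were in NCAPD3, SMC4, NCAPG2 and TOP2A, and TOP2B hardly differed.

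RNA was counted in NGP, an established human neuroblastoma line with amplified MYCN, after capture of single cells in droplets on the ddSeq device. All cells had been synchronised by withdrawal of serum. One treatment was Nutlin-3, which keeps MDM2 from binding p53, and the other was ethanol, each for 24 h. Each treatment had 2 libraries, 1 with ERCC spike-in RNA diluted 1000-fold and 1 with it diluted 10000-fold, so all 4 libraries came from a single line. The table names 250 columns as treated, taken as Nutlin-3, and 250 as untreated, taken as ethanol. No column name gives the library, so each treatment was 1 pool with no replicate. No test between treatments was run, and every interval below covers counting error only, for counts that are independent.

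Topoisomerase II cuts both strands of a DNA helix, passes another helix through the gap and reseals it, which separates the intertwined sister chromatids left by replication. Condensins are ring-shaped complexes built on the ATPases SMC2 and SMC4 that draw chromatin into loops and shape the mitotic chromosome. Condensin II resides in the nucleus through interphase, while condensin I reaches chromosomes once the nuclear envelope has broken down. Many genes of these proteins are transcribed mainly in the later part of the cell cycle. p53 lowers such genes largely through p21 and the repressor complex DREAM, which binds a short promoter element, the cell cycle genes homology region (CHR), whose core letters are TTTGAA.

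The promoters of the members were searched for those letters after the values had been seen. RefSeq windows (GRCh38.p14) of 300 bases, from 250 before to 50 after a listed start, were found for 9 of the 10 members, with 13 windows in all. Searched on both strands, TTTGAA lay in at least 1 window of 8 members, and in 8 of the 13 windows. Of all 35116 windows 15.2% held it, and of all 27305 genes 18.2% held it in at least 1 window. The pair of topoisomerase II genes is shown first, up to the first annotated exon base, since 1 of them passed the 1.2-fold limit and the other was nearest to 0 among the members. The TOP2A stretch is on the minus strand at chr17:40417951-40418146, and the TOP2B stretch on the minus strand at chr3:25664940-25665157. Both read 5′ to 3′, with TTTGAA or its reverse complement in capitals.
TOP2A: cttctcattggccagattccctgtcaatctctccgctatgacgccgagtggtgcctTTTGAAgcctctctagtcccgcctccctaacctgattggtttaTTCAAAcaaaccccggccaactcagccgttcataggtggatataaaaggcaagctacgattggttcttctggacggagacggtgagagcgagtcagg
TOP2B: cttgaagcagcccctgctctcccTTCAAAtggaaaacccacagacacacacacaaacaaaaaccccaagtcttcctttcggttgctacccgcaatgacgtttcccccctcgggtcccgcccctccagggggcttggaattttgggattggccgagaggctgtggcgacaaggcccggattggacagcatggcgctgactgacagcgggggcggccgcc

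The 2 matches of TOP2A began 194 and 151 bases before its start, and the match of TOP2B began 227 bases before. The condensin genes are shown by 20 bases around each match, all of which lie in annotated exons of these genes or of a neighbour, in the same notation.
SMC4: actttttTTCAAAttagtgg
SMC2: gccgaaaTTCAAAggaataa
NCAPD2: gttgagaTTTGAActcggta
NCAPG: ggaattaTTTGAAcgttcga
NCAPD3: agcgagcTTTGAAagttgag
NCAPG2: gggtgcgTTTGAAtctggtc

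These 20 bases are at chr3:160399568-160399587 (plus strand) for SMC4, chr9:104094299-104094318 (plus) for SMC2 and chr12:6493950-6493969 (plus) for NCAPD2. For NCAPG they are at chr4:17810937-17810956 (plus), for NCAPD3 at chr11:134223958-134223977 (minus) and for NCAPG2 at chr7:158704757-158704776 (minus). The match began 75 bases before the start in SMC4, 35 in NCAPG, 145 in NCAPD2 and 3 in SMC2 and NCAPD3, and in NCAPG2 at base 36 counted from the start. The NCAPH window held no match.

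CCAAT, the letters of the CCAAT box, lay in windows of 5 of the 9 members, TOP2A, TOP2B, NCAPD2, NCAPH and NCAPD3 (34.6% of all windows, 39.7% of all genes). An E2F-like element, with the letters TTCCCGC, lay in windows of 2 members, NCAPG and NCAPD3 (6.55% of all windows, 7.82% of all genes). Both strands were searched, and 0 pairs of different motifs overlapped. TOP2B, with a fold change near 0, held the CHR letters as TOP2A did. A match is a description of letters and not a site of binding. Whether the matches have a part in the fold changes was not tested.

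The pools held 1342134 human counts in ethanol and 1301232 in Nutlin-3. ERCC spike-ins took 0.222% and 0.307% of all counts. Column totals fell into 2 classes, with 113 large columns (above 4000 counts) and 137 small ones in each pool, and the large ones carried 88.7% and 89.2% of human counts. Column names were shared between treatments for 219 of 250 columns, including all 113 large ones. CDKN1A, the p21 gene that p53 raises, gave 70 counts with ethanol against 188 with Nutlin-3, and MDM2, another p53 target, gave 315 against 504. The 10 adrenergic neuroblastoma markers had between 104 and 1140 counts each in ethanol and between 131 and 877 in Nutlin-3. Of 11 markers of other cells 5 had a row, with 53 counts in sum in ethanol and 74 in Nutlin-3, the highest being COL1A1 with 29 and 47, while CD68 was at 0 in ethanol and ALB at 0 in Nutlin-3. In pooled counts, fewer cells that transcribe a gene and less RNA per cell cannot be told apart.

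How counts were spread over columns limits how a sum can be read. In the large columns most genes of moderate level had 1 count per column. Among 5084 genes with a mean of 0.9 to 1.4 counts per large ethanol column, the variance over the mean had a median of 0.128, where independent counts would give a ratio near 1. The value was 0.135 for 4722 genes in Nutlin-3. ACTB, the abundant beta-actin gene, named here after its values were seen, gave 197 counts with ethanol against 166 with Nutlin-3, beside 204 against 169 for NCAPD2. The log2 fold change of ACTB was -0.20 (-0.51 to 0.10), as far from 0 as that of the condensin I genes. The part of this count pattern in the members' results was not tested. Sums near 113 per pool are therefore a poor scale of level, no levels are compared between genes, and the counts are also given by column.

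The members together gave 1817 counts with ethanol against 1448 with Nutlin-3. Their share of all human counts was 0.135% with ethanol (0.129 to 0.142, exact binomial, 95%) against 0.111% with Nutlin-3 (0.106 to 0.117), and these intervals did not overlap. The log2 fold change of the sum, Nutlin-3 over ethanol, was -0.28 (95% counting interval -0.38 to -0.18). Per gene, with 0.5 counts added to each sum, the median over the 10 members was -0.21 and the range -0.64 to -0.010, beside a median of -0.01 for the 8844 genes that averaged 50 CPM or more, of which 4666 were below 0. All 10 members passed both the filter on low counts and the 50 CPM limit. Of them 4 were at least 1.2-fold lower and 0 at least 1.2-fold higher. Of the 8844 genes 6.3% were at least 1.2-fold lower and 5.85% at least 1.2-fold higher. Of the 14830 genes past the low-count filter, where small counts widen the spread, 15.3% and 17.5% were. The interval of the fold change lay wholly below 0 for 3 members, TOP2A, SMC4 and NCAPD3. The share of all genes with such an interval was not computed, so this number has no background to be read against. The intervals assume independent counts, so their 95% level cannot stand in for that share.

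**Figure D1:**
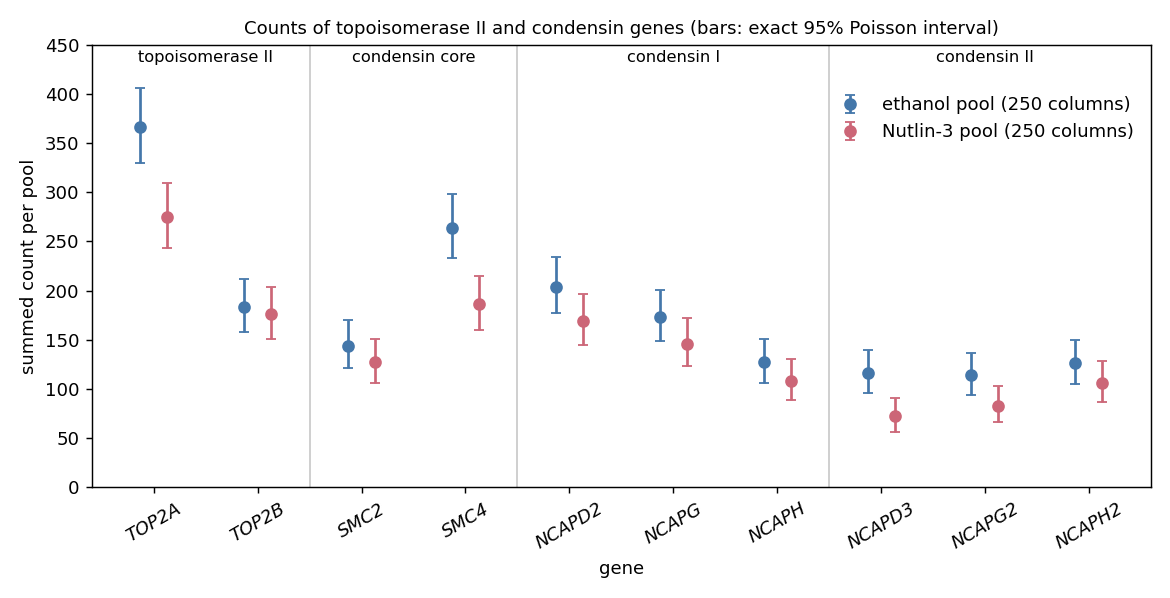
Summed counts (y axis) of the 10 genes in the ethanol and Nutlin-3 pools, with exact 95% Poisson intervals, ordered by role. The Nutlin-3 point lies below the ethanol point for every gene, and the intervals are apart for TOP2A, SMC4 and NCAPD3. The share of all genes with intervals apart was not computed.

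TOP2A (ENSG00000131747, chromosome 17, 40388516 to 40417950 in GRCh38) encodes the topoisomerase II isoform of dividing cells, the target of etoposide and doxorubicin. Its sum was 366 in the ethanol pool (Poisson interval 329 to 405) against 275 in the Nutlin-3 pool (243 to 309). The 2 intervals did not overlap, and the log2 fold change was -0.37 (-0.60 to -0.14), a lower value than in all but 2.75% of the genes of at least 50 CPM. All 113 large columns of each pool held the gene. In ethanol 32 of them had 1 count, 49 had 2 and 32 had 3 or more, and in Nutlin-3 these numbers were 50, 47 and 16. The lowered sum thus came, in large columns, from fewer columns with several counts and not from columns without the gene. In the small columns, 32 of 137 in ethanol and 56 of 137 in Nutlin-3 had 0 counts.

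TOP2B (ENSG00000077097, chromosome 3) encodes the second isoform, which is also made in cells that do not divide and acts in transcription. The ethanol pool held 183 of its counts (157 to 212), the Nutlin-3 pool 176 (151 to 204), and the log2 fold change was -0.010 (-0.32 to 0.30). The intervals overlapped almost wholly. The 2 classes of columns pointed different ways. Large columns gave 147 in ethanol and 130 under Nutlin-3 (log2 fold change -0.14, -0.49 to 0.21). Small columns gave 36 and 46 (0.49, -0.17 to 1.16), and both intervals spanned 0.

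The ratio of TOP2A to TOP2B counts does not depend on how the pools are scaled. With ethanol it was 2, with Nutlin-3 it was 1.56, which is 0.781 times as high (95% counting interval of the odds ratio 0.598 to 1.02). That interval includes 1. Large columns gave 0.876 (0.641 to 1.2). Small columns gave 0.548 (0.315 to 0.953), where TOP2A and TOP2B counts were 117 and 36 in ethanol and 82 and 46 in Nutlin-3. Only the interval of the small columns excluded 1. It is 1 of several ratio intervals given here, with no allowance for their number, and it holds for independent counts. In small columns the variance of TOP2A was 0.371 times its mean in ethanol and 0.429 times in Nutlin-3, and that of TOP2B 0.855 and 0.713 times. This spread, below that of independent counts, is not what limits the small-column interval. The intervals of all columns and of large columns included 1, so a difference between the isoforms is not established.

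SMC4 (ENSG00000113810, chromosome 3, 160399274 to 160434962) encodes an ATPase of the core of both condensins. Its counts numbered 264 in ethanol (233 to 298) against 186 under Nutlin-3 (160 to 215), and the log2 fold change was -0.46 (-0.74 to -0.18). The 2 Poisson intervals were apart, and 1.33% of the genes of at least 50 CPM had a lower fold change. Both classes of columns had fewer counts in Nutlin-3, with log2 fold changes of -0.32 (-0.65 to -0.0006) for large columns and -0.75 (-1.33 to -0.21) for small columns. All 113 large columns held SMC4 in both pools, with 2 or more counts in 51 in ethanol and 26 in Nutlin-3. In the small columns 79 of 137 held it in ethanol and 42 of 137 in Nutlin-3.

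SMC2 (ENSG00000136824, chromosome 9) encodes the partner ATPase. Ethanol columns gave 144 counts (121 to 170), Nutlin-3 columns 127 (106 to 151), and its log2 fold change of -0.13 (-0.49 to 0.22) had an interval that included 0. Most of these counts, 126 and 114, came from the 113 large columns, of which 102 in ethanol and 106 in Nutlin-3 had exactly 1. The ratio of SMC4 to SMC2 was 1.83 with ethanol against 1.46 with Nutlin-3, or 0.799 times as high (0.583 to 1.10). That interval, computed for independent counts, included 1, so a different change of the 2 core genes was not established.

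The 3 genes found only in condensin I each had fewer counts in Nutlin-3, with fold changes whose intervals, computed for independent counts, included 0. In the large columns the variance of these genes was 0.0990 to 0.263 times their mean, below that of independent counts. NCAPD2 (chromosome 12), a HEAT-repeat subunit, gave 204 counts with ethanol (177 to 234) against 169 with Nutlin-3 (144 to 196), and its log2 fold change was -0.22 (-0.53 to 0.08). NCAPG (chromosome 4), the other HEAT-repeat subunit, had 173 (148 to 201) and 146 (123 to 172), and a value of -0.20 (-0.53 to 0.13). NCAPH (chromosome 2), the kleisin that closes the ring, had 127 (106 to 151) and 108 (88.6 to 130), and a value of -0.19 (-0.57 to 0.19). For each of them the 2 Poisson intervals overlapped. Large columns with 2 or more counts of NCAPD2 numbered 36 in ethanol and 17 in Nutlin-3, and those with 2 or more of NCAPG 21 and 7. Summed over the 3 genes 504 counts stood against 423, and the log2 value of -0.21 (-0.40 to -0.02) had an interval just below 0.

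NCAPD3 (ENSG00000151503, chromosome 11, 134150119 to 134225454), a HEAT-repeat subunit of condensin II, had the lowest fold change of the members. Ethanol gave 116 counts (95.9 to 139), Nutlin-3 gave 72 (56.3 to 90.7), and the log2 fold change was -0.64 (-1.09 to -0.21). The Poisson intervals were apart, and 0.305% of the genes of at least 50 CPM had a lower value. The difference lay in the large columns, of which 13 in ethanol and 48 in Nutlin-3 had 0 counts. The small columns held 6 counts in each pool, which allow no statement (0.14, -1.77 to 2.04).

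NCAPG2 (chromosome 7), the other HEAT-repeat subunit of condensin II, gave 114 counts with ethanol (94.0 to 137) against 83 with Nutlin-3 (66.1 to 103). Its log2 fold change of -0.41 passed the 1.2-fold limit, with an interval of -0.84 to 0.009 that just included 0. As with NCAPD3, large columns without the gene were more frequent in Nutlin-3, at 35 against 12 in ethanol. NCAPH2 (chromosome 22), the kleisin of condensin II, gave 126 (105 to 150) against 106 (86.8 to 128). Its value of -0.20 (-0.59 to 0.18) had an interval, computed for independent counts, that included 0, and 7 and 15 large columns lacked it. In the large columns its variance was 0.133 times its mean in ethanol and 0.177 times in Nutlin-3, below that of independent counts. Summed over the 3 genes of condensin II 356 counts stood against 261, at -0.40 (-0.64 to -0.17) on the log2 scale.

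Condensin I and condensin II were compared through the ratio of their own subunits. With ethanol it was 1.42, with Nutlin-3 it was 1.62, or 1.14 times as high (0.927 to 1.41), and the interval includes 1. A stronger lowering of either complex was not established by this interval, which was computed for independent counts. The ratio of the shared core to all own subunits was 0.474 and 0.458, or 0.965 times as high in Nutlin-3 (0.804 to 1.16). All 8 condensin genes together gave 1268 counts against 997, at -0.30 (-0.42 to -0.18) on the log2 scale.

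**Figure D2:**
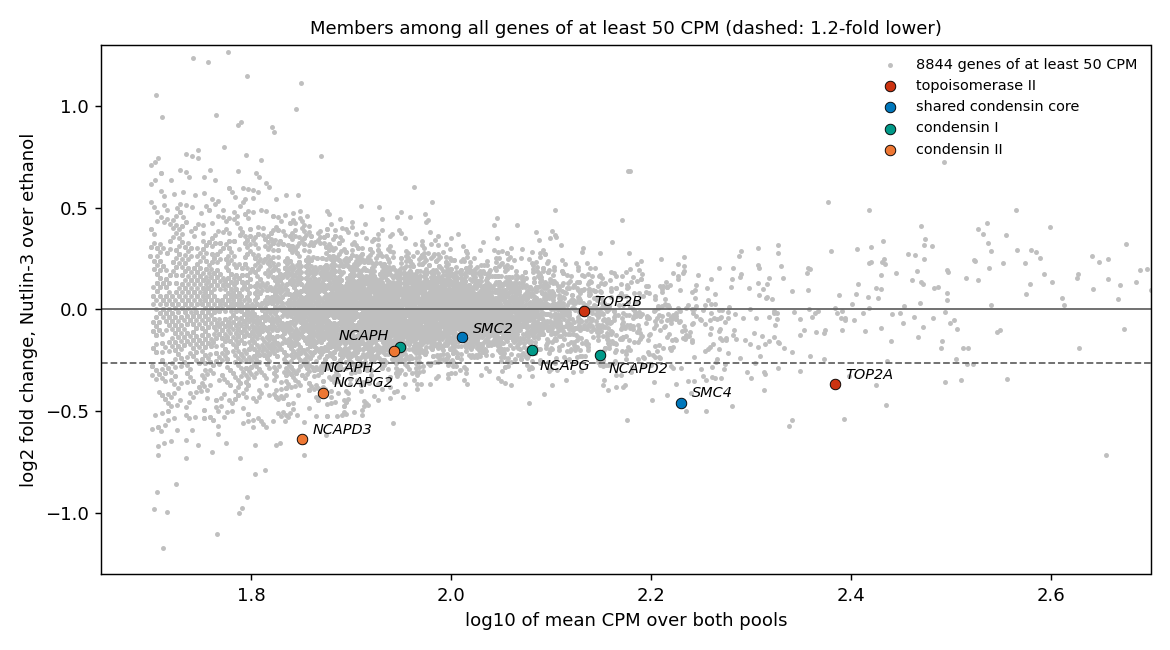
Log2 fold change (y axis) against the log10 of the mean CPM (x axis) for 8844 genes in grey and the 10 members in colour by role, with 26 genes outside the plotted range. NCAPD3, SMC4, NCAPG2 and TOP2A lie below the dashed line of a 1.2-fold decrease, and TOP2B lies at 0.

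Within the large columns the members showed 2 patterns, which are not particular to them. ACTB was also in every large column, with 2 or more counts in 33 in ethanol and 17 in Nutlin-3. CDKN1A was missing from 47 large columns in ethanol and 0 in Nutlin-3. Among the members, TOP2A, SMC4, NCAPD2, NCAPG and TOP2B were present in nearly every large column of both pools (at most 2 of 113 lacked any of them). Their large-column sums differed mainly through columns with 2 or more counts. NCAPD3, NCAPG2, NCAPH2 and NCAPH were missing from some large columns, and more columns lacked them in Nutlin-3. SMC2 moved a little in both ways, with 2 or more counts in 11 large columns with ethanol against 4 with Nutlin-3, and 0 against 3 without it. The small columns added to the sums in their own way. SMC4 went from 80 counts there to 43 and TOP2A from 117 to 82, while TOP2B went from 36 to 46. All 10 members were present together in 84 of 113 large ethanol columns and in 43 of 113 large Nutlin-3 columns. Such numbers were not computed for other sets of 10 genes. In the small columns the median was 2 of the 10 members per column in both pools, and 14 of 137 in ethanol and 24 of 137 in Nutlin-3 held none.

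**Figure D3:**
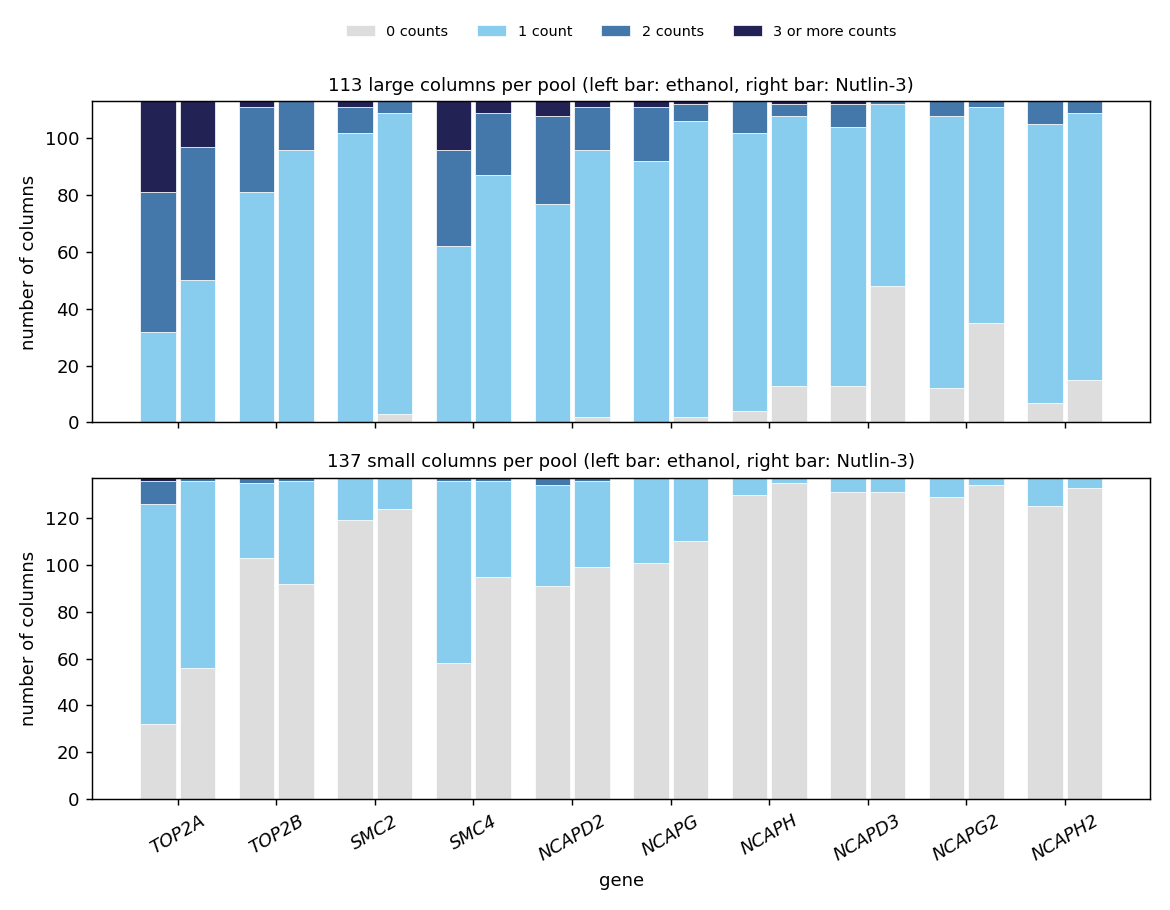
Number of columns (y axis) with 0, 1, 2 or 3 or more counts of each gene, for the 113 large (top) and 137 small (bottom) columns of each pool, ethanol on the left and Nutlin-3 on the right of each pair. Dark segments are shorter in Nutlin-3 for TOP2A and SMC4, and the grey segment of NCAPD3 in large columns is longer, 48 against 13.

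By class of columns, the members' median log2 fold change was -0.19 in the large columns, beside 8.7e-05 for the 14759 genes past the low-count filter there. All 10 members were below 0 and 4 at least 1.2-fold lower, and 14.3% of those genes were at least 1.2-fold lower. Such shares were not computed by class for genes of at least 50 CPM alone. In the small columns, where 7 members passed the low-count filter, the median over all 10 was -0.34, with 8 below 0. The members above 0 were TOP2B and NCAPD3. Of all 10, 7 were at least 1.2-fold lower. They include NCAPH (7 counts in ethanol, 2 in Nutlin-3) and NCAPG2 (8 and 3), which did not pass that filter. Of the 4762 genes that did pass, with a median of 0.027, 30.1% were at least 1.2-fold lower, so the 2 numbers cover unlike sets. When columns with at least 1 count were counted in place of counts, the median was -0.14 and 3 members, SMC4, NCAPD3 and NCAPG2, were at least 1.2-fold lower (14.6% of 14817 genes were). When columns with at least 2 counts were counted, all 10 were at least 1.2-fold lower, with a median of -0.88, although 7 of them passed the low-count filter on that scale. Of the 2706 genes past that filter 32% were at least 1.2-fold lower and 33.2% higher, so that such a fold was frequent there. On that scale TOP2A went from 92 columns in ethanol to 64 in Nutlin-3, SMC4 from 52 to 27, NCAPD2 from 39 to 18, TOP2B from 34 to 18 and NCAPG from 21 to 7. The other 5 had 11 or fewer such columns in each pool.

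**Figure D4:**
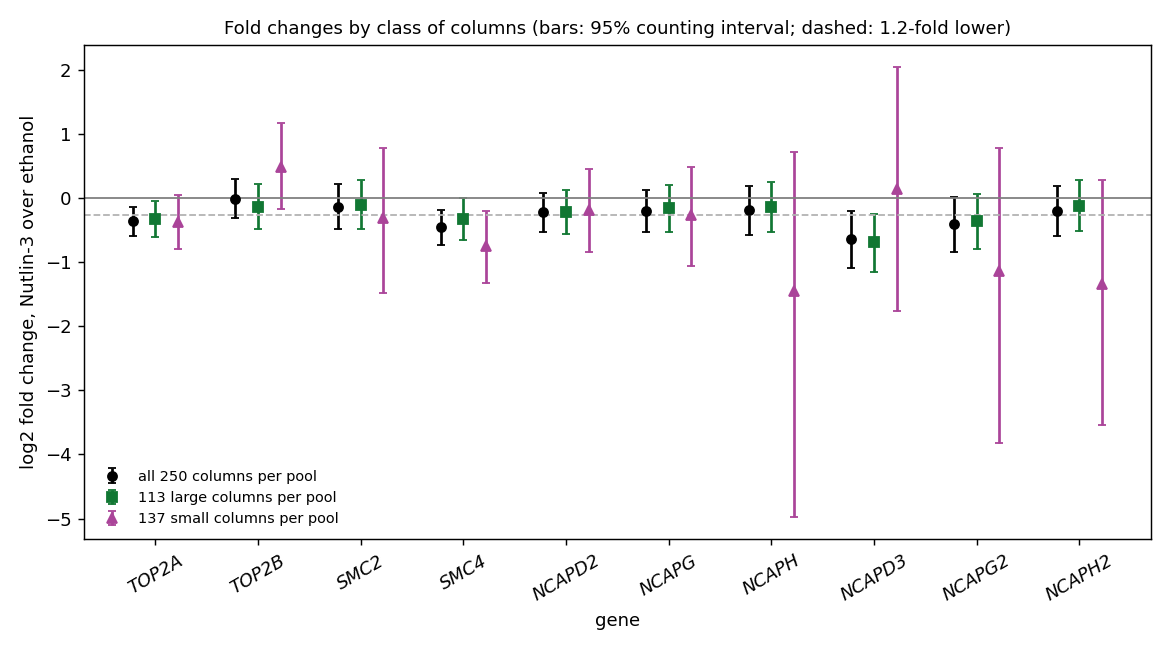
Log2 ratio of the Nutlin-3 to the ethanol pool (y axis) of each gene in all, large and small columns, with 95% counting intervals. Values of all and large columns lie at or below 0 for each gene, and the intervals of the small columns are wide for genes with 12 or fewer counts.

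To compare columns at 1 depth, each was thinned at random to 700 counts, which left 194 ethanol columns (median depth before thinning 8857.5 counts) and 187 Nutlin-3 columns (9254). SMC4 was then seen in 27.3% of ethanol columns (21.2 to 34.2, exact binomial, 95%) against 13.4% of Nutlin-3 columns (8.84 to 19.1). These intervals did not overlap, and the gap came mostly from the small columns, with SMC4 in 38 of 81 against 16 of 74, beside 15 of 113 against 9 of 113 large ones. At 350 counts, which kept 241 and 231 columns, SMC4 was seen in 10.8% (7.17 to 15.4) against 8.66% (5.37 to 13.1), with overlapping intervals, and in large columns in 4.42% against 7.08%. Those large-column values were 5 and 8 of 113 columns. Each depth was a single random draw, and 350 counts also kept more small columns, 128 and 118 in place of 81 and 74. The parts of depth, of the columns kept and of the draw in the SMC4 difference therefore cannot be told apart. TOP2A was seen in 28.4% (22.1 to 35.2) and 24.6% (18.6 to 31.4), and at least 1 condensin gene in 56.7% (49.4 to 63.8) and 46.5% (39.2 to 54.0), with intervals that overlapped. The other 8 members lay between 4.12% and 15.5% in ethanol and between 2.67% and 13.9% in Nutlin-3, and their intervals overlapped. TOP2B was seen in 12.8% of Nutlin-3 columns (8.40 to 18.5) against 8.76% of ethanol columns (5.19 to 13.7) at 700 counts. At 350 counts it was in 8.23% against 9.96%, so its direction differed between these single draws. Without thinning TOP2A was in 87.2% and 77.6% of 250 columns. The line holds no cell type that lacks these genes, so the share that free RNA would give is unknown.

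Genes that act beside the members were taken from fixed lists, whose counts stand beside the 15.3% lower and 17.5% higher of the 14830 genes past the same filter. Most listed genes averaged 50 CPM or more, where 6.3% of 8844 genes were at least 1.2-fold lower and 5.85% higher. Of 12 other topoisomerases and their partners, all past the low-count filter, 5 were at least 1.2-fold lower and 0 higher, with a median log2 fold change of -0.16. The 3 furthest from 0 at 50 CPM or more were TOP3A (104 counts in ethanol, 68 in Nutlin-3, -0.56, -1.03 to -0.11), which unlinks recombining DNA, and its partners RMI2 (-0.44, -0.93 to 0.03) and RMI1 (-0.43, -0.88 to 0.01). TOP1, the single-strand topoisomerase, was at -0.06 (-0.41 to 0.28). Of 17 condensin partners and mitotic chromosome proteins 4 were at least 1.2-fold lower and 0 higher, with a median of -0.14. At 50 CPM or more the furthest were the mitotic kinases AURKB (190 and 138 counts, -0.41, -0.74 to -0.09) and CDK1 (226 and 168, -0.38, -0.68 to -0.09), and the chromosome surface protein MKI67 (178 and 141, -0.29, -0.62 to 0.04). Large and small columns gave -0.27 and -1.03 for AURKB, -0.24 and -0.72 for CDK1, and -0.07 and -1.32 for MKI67. The MKI67 difference thus lay mostly in the small columns (42 and 15 counts).

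Of 14 genes of cohesin, SMC5/6 and the separate SMC-related protein SMCHD1, 1 was at least 1.2-fold lower and 0 higher, with a median of -0.17. The gene past the limit was STAG1 (74 and 58 counts, -0.30, -0.83 to 0.21), just under 50 CPM and named after its values were seen. Among those of at least 50 CPM the furthest from 0 were SMC5, SLF2 and NSMCE2 (-0.26, -0.26 and -0.25), and the intervals of all 4 included 0. Of 14 linker histones and architectural proteins 4 were at least 1.2-fold lower and 0 higher, with a median of -0.15. At 50 CPM or more the furthest from 0 were the spindle protein NUSAP1 (239 and 159 counts, -0.54, -0.84 to -0.25), and the DNA-bending proteins HMGB1 (298 and 208, -0.47, -0.74 to -0.21) and HMGB2 (403 and 302, -0.37, -0.59 to -0.15). NUSAP1 was at -0.25 in large columns and -1.47 in small ones (74 and 24 counts). Large and small columns gave -0.43 and -0.51 for HMGB1, and -0.40 and -0.23 for HMGB2. Whether the members differed from these lists was not tested.

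Several members overlap genes on the opposite strand, and whether counting used strand is not given in the sources used here, so such reads cannot be told apart. SMC4 overlaps TRIM59 (159 counts in ethanol, 132 in Nutlin-3) and IFT80 (118 and 117), NCAPG overlaps LCORL (136 and 121), NCAPD2 overlaps MRPL51 (210 and 200) and NCAPD3 overlaps JAM3 (110 and 93) and VPS26B (118 and 112). The overlap of TOP2B with RARB (26 and 11) is 28 bases. The pseudogenes NCAPD2P1 (2 and 2 counts) and NCAPGP1 (6 and 3) held few counts.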

How the data were processed

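The values, deposited as whole-number counts, cover 25693 human genes and 62 ERCC species in 500 columns. Per the labels' protocols, the libraries read the 3′ end of polyadenylated RNA (SureCell WTA 3′ kit). The aligner, genome build, cell filter and handling of molecular tags were not given in the sources used here. A test was planned for the case that libraries could be told apart, which they could not.

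Each treatment's 250 columns were added up, leaving ERCC aside. TMM scaling (edgeR 4.0.16, R 4.3.3) was fitted on the 14830 genes past the edgeR filter with its minimum count of 10. Log2 fold changes used 0.5 added counts. Intervals (95%) came from exact binomial and Poisson limits (scipy 1.17.1), and the script was tested on simulated data. The 1.2-fold limit served as the call. Columns were split at 4000 counts and thinned to 700. Symbols and gene positions came from GENCODE release 29 (GRCh38), matched for 25602 genes, and that build need not be the authors'. No doublet caller was run, since a single line was used.

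Members and lists were chosen with earlier results of these data known. All members, CDKN1A and MDM2 were named whatever their values, and from each list the 3 genes furthest from 0 with at least 50 CPM were named. ACTB, TOP1 and the promoter motifs were added after the values were seen. DESeq2 1.42.0 size factors, other pseudocounts, ERCC scaling and classes of columns were alternatives.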

Additional observations from a re-analysis of the deposited data

How the results depend on the processing

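The members' median kept its sign under all 13 alternatives that gave one. Scaling to ERCC counts gave -0.68 with 10 members at least 1.2-fold lower, and shifted all genes to a median of -0.47. That median is itself past the 1.2-fold limit (-0.26), so most genes were called there and the number of 10 members says little. The scaling moves each gene by the same amount, so the members' order among all genes was that of the main setting. The 2 ERCC dilutions differ and columns cannot be assigned to libraries, so the ERCC totals also depend on the mix of libraries. Counting columns with at least 2 counts, an alternative chosen after seeing the data, gave -0.88 and 10 members, and small columns alone gave 7 members. Both numbers include members that did not pass the low-count filter there. Single genes changed sign 3 times in all. TOP2B was at 0.49 and NCAPD3 at 0.14 in small columns alone, and TOP2B at 0.14 by columns with at least 1 count. The cause was not tested. DESeq2 size factors, no scaling factor, other added counts, thinning to the smaller pool, removal of shallow columns and names in both treatments left all 10 genes within their counting intervals.

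The members' share of counts stayed higher in ethanol. Large columns alone gave 0.122% with ethanol and 0.102% with Nutlin-3, small columns alone 0.243% and 0.188%, columns with names in 1 treatment 0.278% and 0.217%, and columns with at least 1 count 0.119% with ethanol. The share of columns with TOP2A was 18.7% and 12.6% at 350 counts, 87.2% and 77.6% without thinning, and 51.9% and 43.2% in small columns alone. Large columns alone, thinned to 700 counts, gave 11.5% with ethanol and 12.4% with Nutlin-3, the only setting in which Nutlin-3 was higher. Those shares were 13 and 14 of 113 columns from a single random draw, which cannot establish a change of direction. Before thinning, the TOP2A sum over the large columns was lower with Nutlin-3, at 193 against 249.

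No paired analysis was possible because no column name tells the library or replicate, so leaving out each library and a replicate block were not run. Columns with names in 1 treatment gave no median, since 6 of the 10 members had counts in both pools there. Counts near 1 per column, 1 pool per treatment and few counts in small columns limit every fold change given.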

Other observations

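A pair of chromosome segregation genes below 50 CPM, named after their values were seen, had lower fold changes than any member. ERCC6L, the PICH translocase that binds stretched DNA between separating sister chromatids and works with topoisomerase II, gave 85 counts with ethanol against 46 with Nutlin-3, or -0.83 on the log2 scale (-1.39 to -0.31, 95% counting error). INCENP, the scaffold that holds Aurora B at the inner centromere, had 64 and 32 counts, a value of -0.94 (-1.61 to -0.32). Its partners BIRC5 (188 and 158 counts, -0.20, -0.52 to 0.11) and CDCA8 (168 and 148, -0.14, -0.47 to 0.19) had intervals that included 0. Both were picked for their low values, which counting error can exaggerate.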
